A study of Mus musculus with 8 samples.

Results

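Immediate early genes are transcribed within minutes of a stimulus without new protein synthesis, and most of them encode transcription factors that switch on a later set of genes. Fos, Fosb, Jun and Junb are subunits of the dimeric factor AP-1, in which a Fos protein needs a Jun partner, and Atf3 is a stress-induced relative that pairs with Jun proteins. Egr1 and Klf4 are zinc finger factors, Nr4a1 is an orphan nuclear receptor, Ier2 is a nuclear protein, and Ier3 is known as a regulator of cell survival rather than as a DNA-binding factor. In fat, members of this group respond to feeding, hormones, cytokines and handling of the tissue. The 10 genes were taken by symbol, with every probe annotated to them: 12 of the 25697 probes, 3 of them for Klf4 and 1 for each other gene, among 16593 genes named on the array.

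Adipose tissue of obese, high-fat-fed C57Bl6 mice was profiled on 8 Illumina bead arrays, 1 sample each. There were 3 arrays from IL6 knock-out mice aged 25 weeks (IL6_KO), 3 from sgp130Fc transgenic mice aged 26 weeks and 2 from wild type mice aged 24 weeks (WT), all fasted for 5 h before the tissue was frozen. The sgp130Fc transgene encodes a fusion of the soluble gp130 receptor chain with an antibody Fc part, which captures complexes of IL-6 and its soluble receptor and so blocks trans-signalling. The comparisons ask how loss of IL-6 and block of its trans-signalling differ from WT and from each other. The promoter that drives the transgene, the extent of the Il6 deletion, the fat depot and the sex of the mice are not given in the sources used here. Age differs between the genotypes and not within them, so age and genotype cannot be told apart. The labels number the replicates and do not say that each came from its own animal, so p-values measure only the spread between these samples, which may be technical.

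Between 12499 and 13378 probes (48.6% to 52.1%) were detected per array. The array of IL6_KO replicate 2 stood apart, with a mean correlation of 0.944 with the other arrays, against 0.964 to 0.973 for the rest. For the brightest probe of each member, differences that involve IL6_KO are also given without it. Differences of other genes and the medians of lists include it unless stated. Il6, the deleted gene, lay near background at 5.17, 5.07 and 5.16 on the IL6_KO arrays, 2 of which detected it, at 4.78, 4.62 and 4.46 on the sgp130Fc arrays and at 4.40 and 4.47 on the WT arrays, none of which did. Where its probe lies relative to the deleted part is not given in the sources used here, so it does not check the labels, and the groups are named as labelled. Adipocyte markers (11 of 12 tested) summed on the linear scale to between 24330 and 63160 on the IL6_KO arrays, 68230 and 69650 on the sgp130Fc arrays and 73720 and 75010 on the WT arrays. Without IL6_KO replicate 2 the IL6_KO sums were 53660 and 63160. The adipocyte gene Adipoq was detected on all 8 arrays, and every IL6_KO array was below the other 5 in this sum. In whole tissue, fewer cells of a type and less RNA per cell cannot be told apart.

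Promoters of 4 members are shown to place the response elements that they carry near the gene start. These 4 had an unadjusted p under 0.05 by limma in IL6_KO minus WT, as given below. RefSeq promoters of GRCm38.p6, from 250 bases before to 50 bases after the start, were found for 8 of the 10 members and none for Egr1 and Ier2. Capitals mark matches on either strand to TGACG, the core of the cyclic AMP response element (its reverse complement on the minus strand), to the EGR site GCGNGGGCG and to TATAAA. They are given 5′ to 3′ on the gene's own strand. Atf3 is at chr1:191183284-191183583 on the minus strand, Junb at chr8:84978699-84978998 on the minus strand, Fos at chr12:85473640-85473939 on the plus strand and Klf4 at chr4:55532426-55532725 on the minus strand.
Atf3: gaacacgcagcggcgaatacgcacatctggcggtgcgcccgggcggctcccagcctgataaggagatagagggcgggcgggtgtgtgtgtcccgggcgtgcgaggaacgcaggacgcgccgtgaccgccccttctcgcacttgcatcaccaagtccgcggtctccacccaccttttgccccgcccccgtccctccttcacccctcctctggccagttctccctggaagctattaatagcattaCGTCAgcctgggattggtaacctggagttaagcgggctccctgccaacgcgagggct
Junb: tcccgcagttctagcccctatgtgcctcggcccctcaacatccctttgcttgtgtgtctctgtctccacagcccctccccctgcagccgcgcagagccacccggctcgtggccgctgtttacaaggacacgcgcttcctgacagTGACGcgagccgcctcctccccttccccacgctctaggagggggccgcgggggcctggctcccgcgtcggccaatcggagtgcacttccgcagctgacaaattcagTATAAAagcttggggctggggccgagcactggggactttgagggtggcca
Fos: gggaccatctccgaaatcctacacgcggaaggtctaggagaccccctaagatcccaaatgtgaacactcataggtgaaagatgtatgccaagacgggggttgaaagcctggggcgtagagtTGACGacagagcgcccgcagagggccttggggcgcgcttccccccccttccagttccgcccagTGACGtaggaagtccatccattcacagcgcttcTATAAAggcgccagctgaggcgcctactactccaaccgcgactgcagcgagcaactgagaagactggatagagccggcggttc
Klf4: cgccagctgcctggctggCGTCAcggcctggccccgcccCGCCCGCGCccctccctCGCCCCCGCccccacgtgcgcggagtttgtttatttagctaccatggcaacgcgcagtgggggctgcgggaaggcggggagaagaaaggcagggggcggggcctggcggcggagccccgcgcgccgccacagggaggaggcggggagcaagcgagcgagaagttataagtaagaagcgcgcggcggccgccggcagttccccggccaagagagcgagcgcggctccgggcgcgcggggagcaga

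Fos held TGACG at positions -129 to -125 and -66 to -62 and TATAAA at -33 to -28, counted so that -1 is the last base before the start and 1 the first base after it. In Junb, TGACG lay at -106 to -102 and TATAAA at 1 to 6. Atf3 had 1 match, to TGACG on the other strand at -7 to -3. Klf4 had TGACG at -232 to -228 and EGR sites at -211 to -203 and -194 to -186, all on the other strand. Over all 8 member promoters, 6 held TGACG (the 4 above, Fosb and Nr4a1), against 20.8% of the 32851 promoters of the table. The EGR site was in 3 of the 8 (Fosb, Klf4 and Nr4a1), against 5.55% of all, and TATAAA in 2, against 13.6%. None of the 8 held the CArG box of serum response factor, the AP-1 site TGANTCA or the STAT site TTCNNNGAA, which were in 1.63%, 7.81% and 8.3% of all promoters. A match, or the lack of one, describes the letters of this window and no more. Sites farther from the start were not searched, nor were the promoters of Egr1 and Ier2. Member promoters had a median GC content of 65.0% (54.0% to 74.3%), against 52.7% over the table. The genes themselves are short, with a median span of 3.57 kb in GRCm38.p6 (1.2 to 20.9 kb), against 21.3 kb for 9766 tested coding genes, 8.59% of which are as short.

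Transcripts of 8 members were detected on all 8 arrays and were tested: Fos, Fosb, Jun, Junb, Egr1, Atf3, Ier3 and Klf4. Ier2 and Nr4a1 were detected on 0 arrays, with detection p-values of 0.149 to 0.576 and of 0.356 to 1, and were not tested. Levels are normalized log2 intensities, so that a difference of 1 is a doubling, and they can be compared between arrays for 1 probe but not between genes. No member passed an adjusted p of 0.05 in any of the 3 comparisons by limma, with Benjamini-Hochberg adjustment over 14141 probes. In IL6_KO minus WT, 0 of 8 were called, against 0.296% of the 9803 tested genes. At an unadjusted p under 0.05, 3 were higher (Atf3, Junb, Fos) and 1 lower (Klf4), against 21.3% of all tested genes, and the same 4 had group ranges that did not overlap, against 40.1%. In sgp130Fc minus WT, 0 were called, against 0.112%. Fos alone was higher at an unadjusted p under 0.05, against 8.56% of all tested genes, and alone had ranges apart, against 29.6%. Between sgp130Fc and IL6_KO, 0 were called, against 1.44%. Klf4 was higher and Junb and Atf3 lower at an unadjusted p under 0.05, against 18.4% of all tested genes, and the same 3 had ranges apart, against 27%. The median log2 difference of the 8 was 0.12 in IL6_KO minus WT, -0.07 in sgp130Fc minus WT and -0.21 in sgp130Fc minus IL6_KO, beside -0.0026, -0.0053 and 0.0013 over all tested genes.

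**Figure D1:**
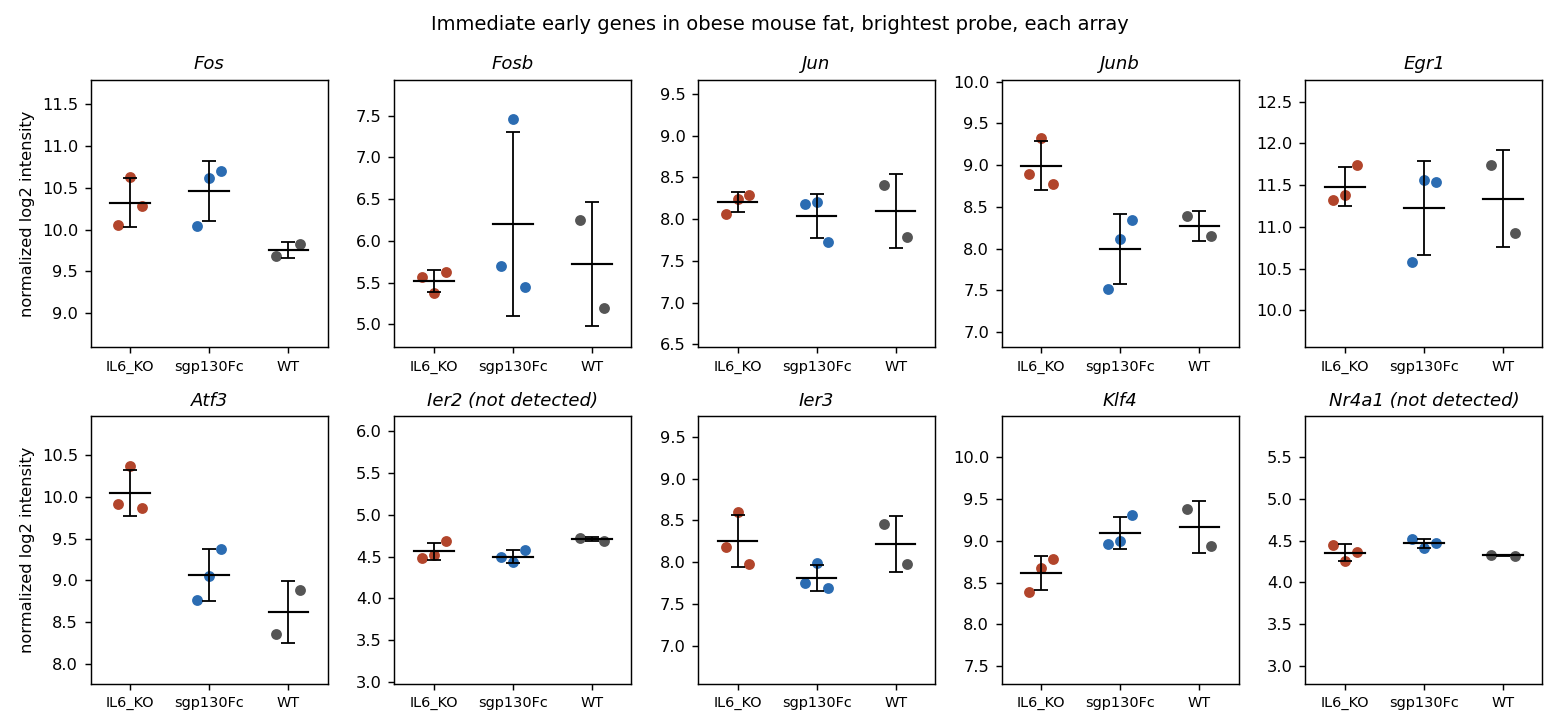
Normalized log2 intensity (vertical axis) of the brightest probe of each of the 10 genes on the 3 IL6_KO, 3 sgp130Fc and 2 WT arrays; points are arrays, long bars group means and whiskers SD, and each panel has its own level range. Atf3 lies between 9.87 and 10.37 on the IL6_KO arrays and at most at 9.38 on the others, while Ier2 and Nr4a1 stay at background.

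Atf3 showed the widest difference. It lay at 9.91, 10.37 and 9.87 on the IL6_KO arrays, at 8.76, 9.05 and 9.38 on the sgp130Fc arrays and at 8.36 and 8.88 on the WT arrays. All 3 IL6_KO arrays were above the other 5, and the sgp130Fc and WT arrays overlapped. The mean level was 10.05 ± 0.28 in IL6_KO and 8.62 ± 0.37 in WT (SD, n = 3 and 2), a difference of 1.43 (SE 0.25, 95% interval 0.85 to 2.00), or 2.69-fold. The adjusted p was 0.0644 and missed the threshold. It was 0.0463 with an intensity trend in the prior, 0.0316 with array weights and 0.0322 without IL6_KO replicate 3, which pass, and between 0.0316 and 0.248 over 19 alternatives. The settings that pass called 64, 268 and 778 probes in this comparison, against 35 in the main model. Without IL6_KO replicate 2 the difference was 1.27 (adjusted p = 0.0995).

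Atf3 in sgp130Fc minus IL6_KO differed by -0.98 (SE 0.23, interval -1.49 to -0.47, adjusted p = 0.0803), from means of 9.06 ± 0.31 in sgp130Fc and 10.05 ± 0.28 in IL6_KO (SD, n = 3 each). Without IL6_KO replicate 2 it was -0.82 (adjusted p = 0.183), and with array weights the adjusted p was 0.0077. Array weights called 1730 probes in this comparison, against 179 in the main model. The sgp130Fc arrays exceeded WT by 0.44 on average (interval -0.13 to 1.01, adjusted p = 0.702), a difference within the spread of the arrays. Macrophages express Atf3 under stress. The 10 tested macrophage markers (of 12) summed to 29440 to 40680 on the IL6_KO arrays, 25120 to 31050 on the sgp130Fc arrays and 19700 to 20810 on the WT arrays (29440 and 32250 on the IL6_KO arrays without replicate 2). All 10 were higher in IL6_KO than in WT and in sgp130Fc than in WT, with 0 called in either by limma (8 and 6 at an unadjusted p under 0.05, against 21.3% and 8.56% of all tested genes). Their medians were 0.62 in IL6_KO minus WT and 0.55 in sgp130Fc minus WT, where Atf3 overlapped WT. In sgp130Fc minus IL6_KO, where Atf3 differed by -0.98, 3 of the 10 were higher and 7 lower, with a median of -0.15 (-1.63 to 0.63). By limma 0 were called there, and 1 was higher and 4 lower at an unadjusted p under 0.05, against 18.4% of all tested genes. Their part in the Atf3 difference was not tested.

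Junb encodes the AP-1 subunit that often restrains Jun. It lay at 8.89, 9.32 and 8.77 on the IL6_KO arrays, at 7.52, 8.12 and 8.34 on the sgp130Fc arrays and at 8.40 and 8.15 on the WT arrays. The IL6_KO arrays again stood above the other 5, whose levels overlapped. The mean was 7.99 ± 0.42 in sgp130Fc and 9.0 ± 0.29 in IL6_KO (SD, n = 3 each), a difference of -1.0 (SE 0.24, interval -1.54 to -0.46), or 2.00-fold lower in sgp130Fc, with an adjusted p of 0.0886. Array weights, with which 1730 probes were called in this comparison, brought this p to 0.0121. Without IL6_KO replicate 2 the difference was -0.84 (adjusted p = 0.198). IL6_KO exceeded WT (8.27 ± 0.18, n = 2) by 0.72 (SE 0.27, interval 0.12 to 1.33, adjusted p = 0.183), and by 0.56 without IL6_KO replicate 2. The difference between sgp130Fc and WT was -0.28 (interval -0.88 to 0.33, adjusted p = 0.829).

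Fos, whose protein is the AP-1 subunit that cannot pair with itself, was the member that stood apart from WT in both altered genotypes. Its level was 10.06, 10.64 and 10.28 on the IL6_KO arrays, 10.05, 10.62 and 10.71 on the sgp130Fc arrays and 9.69 and 9.83 on the WT arrays. Both WT arrays were below all 6 others, while the IL6_KO and sgp130Fc arrays overlapped over nearly their whole range. The difference was 0.57 in IL6_KO minus WT (SE 0.25, interval 0.01 to 1.12, adjusted p = 0.234). In sgp130Fc minus WT it was 0.70 (SE 0.25, interval 0.15 to 1.26, adjusted p = 0.494). These comparisons share the same 2 WT arrays. Without IL6_KO replicate 2 the first was 0.41 (adjusted p = 0.483). sgp130Fc and IL6_KO differed by 0.13 (interval -0.36 to 0.63, adjusted p = 0.786), and by 0.29 without that array.

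Fosb, a Fos relative with the dimmest detected probe, lay at 5.56, 5.37 and 5.63 on the IL6_KO arrays, at 5.70, 7.46 and 5.45 on the sgp130Fc arrays and at 6.25 and 5.20 on the WT arrays. A single array, sgp130Fc replicate 2, held the high value, and the groups overlapped. The mean in sgp130Fc was 6.20 ± 1.10 (SD, n = 3), the widest spread of any member. sgp130Fc minus WT gave 0.48 with it and -0.15 without it, and sgp130Fc minus IL6_KO gave 0.68 (adjusted p = 0.493) with it and 0.05 without it. IL6_KO minus WT was -0.20 (interval -1.43 to 1.04, adjusted p = 0.871). With IL6_KO replicate 2 left out, sgp130Fc minus IL6_KO was 0.61 and IL6_KO minus WT -0.12.

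Jun, the main partner of Fos, lay at 8.07, 8.24 and 8.29 on the IL6_KO arrays, at 8.18, 8.20 and 7.73 on the sgp130Fc arrays and at 8.41 and 7.78 on the WT arrays. The WT arrays, 1 high and 1 low, spanned all others but sgp130Fc replicate 3. The differences were 0.10 in IL6_KO minus WT (interval -0.42 to 0.63, adjusted p = 0.836), -0.06 in sgp130Fc minus WT (interval -0.58 to 0.46, adjusted p = 0.963) and -0.16 in sgp130Fc minus IL6_KO (interval -0.63 to 0.30, adjusted p = 0.715). Leaving out IL6_KO replicate 2 gave Jun differences of 0.08 in IL6_KO minus WT and -0.14 in sgp130Fc minus IL6_KO.

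Egr1, the zinc finger factor induced by growth factors and insulin, lay at 11.32, 11.38 and 11.75 on the IL6_KO arrays, at 10.58, 11.56 and 11.54 on the sgp130Fc arrays and at 11.75 and 10.93 on the WT arrays. The groups overlapped, and sgp130Fc replicate 1 and WT replicate 2 were the low arrays. The differences were 0.14 in IL6_KO minus WT (interval -0.63 to 0.92, adjusted p = 0.848), -0.11 in sgp130Fc minus WT (interval -0.89 to 0.67, adjusted p = 0.952) and -0.26 in sgp130Fc minus IL6_KO (interval -0.95 to 0.44, adjusted p = 0.70). Egr1 gave 0.19 in IL6_KO minus WT and -0.31 in sgp130Fc minus IL6_KO without IL6_KO replicate 2.

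Ier3, the survival regulator, lay at 8.18, 8.60 and 7.98 on the IL6_KO arrays, at 7.75, 7.99 and 7.69 on the sgp130Fc arrays and at 8.46 and 7.98 on the WT arrays. The sgp130Fc arrays were the low ones, but replicate 2 overlapped the other groups. Its differences were -0.45 in sgp130Fc minus IL6_KO (interval -0.91 to 0.02, adjusted p = 0.299) and -0.41 in sgp130Fc minus WT (interval -0.93 to 0.11, adjusted p = 0.696). IL6_KO minus WT was 0.03 (interval -0.49 to 0.56, adjusted p = 0.948). Without IL6_KO replicate 2, IL6_KO minus WT turned to -0.14 and sgp130Fc minus IL6_KO was -0.27.

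**Figure D2:**
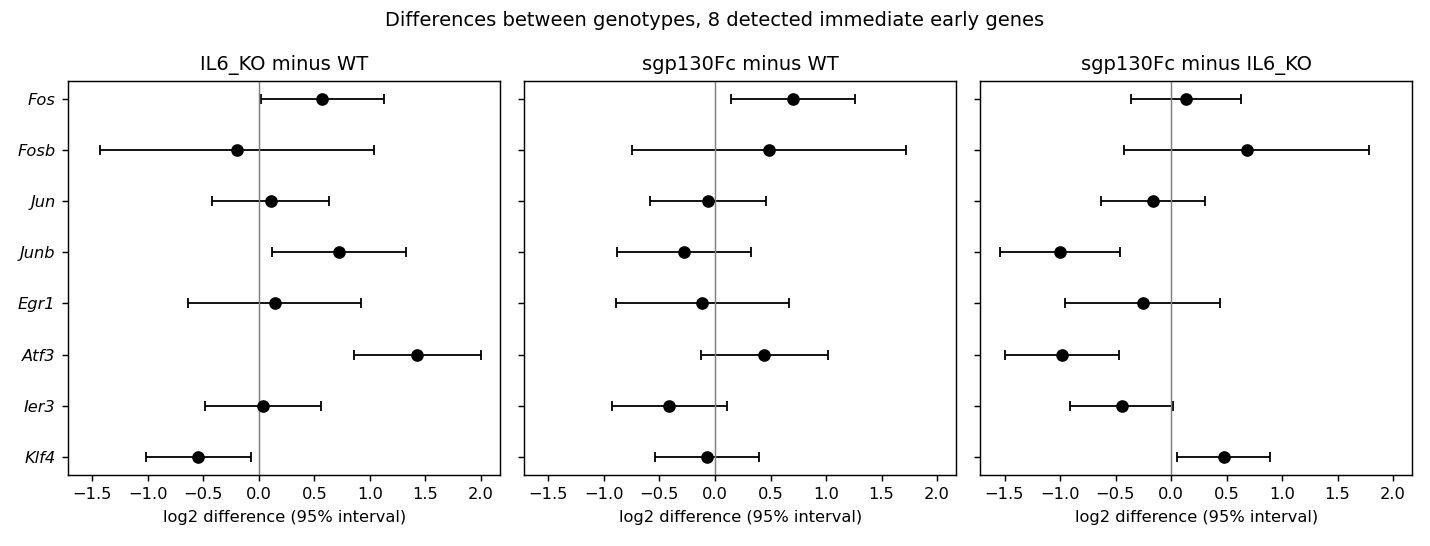
Log2 difference (horizontal axis) with its 95% interval from limma for the 8 detected genes in the 3 comparisons, not adjusted for multiple testing. The interval of Atf3 lies between 0.85 and 2.00 in IL6_KO minus WT and between -1.49 and -0.47 in sgp130Fc minus IL6_KO.

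Klf4, a Krüppel-like factor of endothelium, smooth muscle and macrophages, ran the other way from Atf3 and Junb. Its brightest probe (ILMN_2999439) lay at 8.39, 8.67 and 8.79 on the IL6_KO arrays, at 8.96, 9.0 and 9.32 on the sgp130Fc arrays and at 9.39 and 8.94 on the WT arrays. All 3 IL6_KO arrays were below the other 5. The second probe (ILMN_1241903) gave 7.05, 6.72 and 7.43 on the IL6_KO arrays, 7.39, 7.47 and 7.54 on the sgp130Fc arrays and 7.47 and 7.68 on the WT arrays. The third (ILMN_1221264) gave 6.24, 5.67 and 6.34 on the IL6_KO arrays, 6.43, 6.69 and 6.48 on the sgp130Fc arrays and 6.58 and 6.52 on the WT arrays. In all 3 probes the IL6_KO arrays lay below both WT arrays, and in the second they overlapped the sgp130Fc arrays.

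The 3 Klf4 probes differed by -0.55, -0.50 and -0.46 in IL6_KO minus WT (adjusted p = 0.192, 0.229 and 0.266), with an SE of 0.21, 0.21 and 0.22. They differed by 0.47, 0.40 and 0.45 in sgp130Fc minus IL6_KO (adjusted p = 0.233, 0.314 and 0.278) and by -0.07, -0.11 and -0.02 in sgp130Fc minus WT. None passed, and the probes read the same RNA, so they are not replicates of each other. Array weights, with which 1730 probes were called in sgp130Fc minus IL6_KO, brought the brightest probe to an adjusted p of 0.0361 there. Without IL6_KO replicate 2 it differed by -0.57 in IL6_KO minus WT (adjusted p = 0.306) and by 0.50 in sgp130Fc minus IL6_KO (adjusted p = 0.380). Endothelial markers were also lower on the IL6_KO arrays than on the others. The 8 tested of 10 summed to 4722 to 7430 on the IL6_KO arrays, 10330 to 11560 on the sgp130Fc arrays and 10200 to 12020 on the WT arrays, with Kdr not above background, and to 7124 and 7430 on the IL6_KO arrays without replicate 2. All 8 were lower in IL6_KO than in WT, with 0 called by limma (8 at an unadjusted p under 0.05, against 21.3% of all tested genes). They were all higher in sgp130Fc than in IL6_KO, with 3 called, against 1.44%. The 5 tested smooth muscle markers summed to 2834 to 5592 on the IL6_KO arrays, 6616 to 7832 on the sgp130Fc arrays and 8503 to 12400 on the WT arrays (5372 and 5592 on the IL6_KO arrays without replicate 2). The 10 tested macrophage markers went the other way, all higher in IL6_KO than in WT, with a median of 0.62. All tested adipocyte and erythroid markers were lower there. The part of these cell types in the Klf4 difference was not tested.

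**Figure D3:**
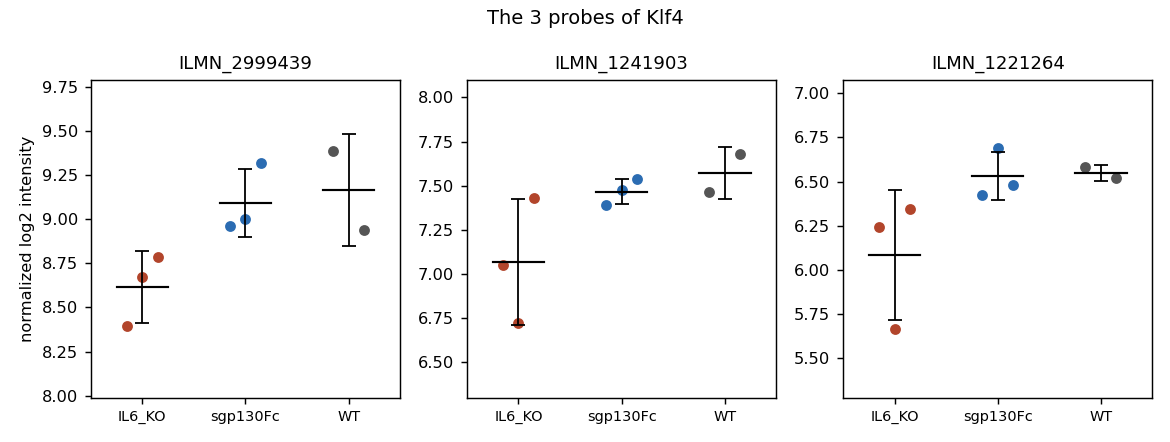
Normalized log2 intensity (vertical axis) of the 3 Klf4 probes on the IL6_KO, sgp130Fc and WT arrays, with group means and SD; each panel has its own level range. In each probe the IL6_KO arrays lie below both WT arrays.

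Ier2 and Nr4a1 gave only background. The Ier2 probe read 4.49, 4.52 and 4.68 on the IL6_KO arrays, 4.49, 4.43 and 4.58 on the sgp130Fc arrays and 4.72 and 4.69 on the WT arrays. The Nr4a1 probe read 4.45, 4.26 and 4.37 on the IL6_KO arrays, 4.52, 4.41 and 4.47 on the sgp130Fc arrays and 4.33 and 4.32 on the WT arrays. These values carry no order between groups, since no array detected either gene, and each rests on 1 probe.

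Whether the members moved together from array to array could not be settled with 8 arrays. Of 7 relations of Fos with the other detected members across the 8 arrays, 0 passed after adjustment over the 7 in a two-sided exact permutation test. The highest r over the 8 arrays was with Atf3, with Pearson r = 0.58 (permutation p = 0.136, adjusted 0.852) and Spearman rho = 0.69 (permutation p = 0.0694, adjusted 0.486). For the others r was 0.29 with Junb, 0.27 with Egr1, 0.18 with Fosb, -0.08 with Klf4, -0.16 with Ier3 and -0.18 with Jun. Without the 2 arrays farthest in Fos (sgp130Fc replicate 3 and WT replicate 1), r was 0.74 with Jun, 0.63 with Egr1, 0.57 with Fosb, 0.53 with Ier3, 0.47 with Atf3, 0.42 with Junb and 0.03 with Klf4. The order of the relations and the sign for Jun, Ier3 and Klf4 thus rested on those arrays. Within groups, as deviations from the group means, r with Fos was 0.85 for Junb, 0.83 for Atf3, 0.50 for Egr1, 0.40 for Klf4, 0.32 for Ier3, 0.08 for Fosb and -0.26 for Jun, given as a description. Across the 8 arrays Atf3 and Junb had r = 0.81 and Atf3 and Klf4 r = -0.73, and both values also hold the differences between groups.

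The mean of the 8 members, each centred on its own mean, was 0.01, 0.29 and 0.13 on the IL6_KO arrays, -0.35, 0.21 and -0.02 on the sgp130Fc arrays and 0.05 and -0.33 on the WT arrays. It was highest on IL6_KO replicate 2 and lowest on sgp130Fc replicate 1 and WT replicate 2, so that the spread within groups was as wide as that between them. Among 5566 other genes that varied as much as the least variable member, the 5 most like this mean over the 8 arrays were Clec4e (r = 0.956), Oas1g (r = 0.893), Fbxo33 (r = 0.886), Ninj2 (r = 0.883) and Nkain4 (r = 0.860). Clec4e is a lectin receptor of macrophages that was detected on 6 of the 8 arrays. They were picked as the highest of many, so the values are a description.

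Among 18 other AP-1 family members, 13 were tested. In IL6_KO minus WT and in sgp130Fc minus WT 0 were called by limma, with medians of 0.04 and -0.03. At an unadjusted p under 0.05 there were 0 and 1, against 21.3% and 8.56% of all tested genes. Jdp2, which represses AP-1, was the only one called in sgp130Fc minus IL6_KO, against 1.44% of all tested genes. It rose there by 0.93 (SE 0.18, adjusted p = 0.0436). Its level was 7.91, 7.91 and 8.37 on the sgp130Fc arrays and 7.08, 7.14 and 7.18 on the IL6_KO arrays. Atf4, the factor of the integrated stress response that induces Atf3, differed by 0.62 in IL6_KO minus WT (adjusted p = 0.299) and was not called.

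Of 40 other immediate early genes, 33 were tested and 0 were called by limma against WT in either comparison (at an unadjusted p under 0.05, 6 higher and 3 lower in IL6_KO, against 21.3% of all tested genes, and 10 higher and 5 lower in sgp130Fc, against 8.56%). In sgp130Fc minus IL6_KO, 2 rose and 3 fell, against 1.44% of all tested genes. Per1, a clock gene that glucocorticoids induce, rose by 2.05 (SE 0.20, adjusted p = 0.00299), or 4.14-fold, to 10.14, 10.27 and 10.30 on the sgp130Fc arrays, against 8.04, 8.33 and 8.20 on the IL6_KO arrays. Both WT arrays, at 9.70 and 8.94, lay between these groups. Ccn2, a matricellular factor, rose by 1.40 (adjusted p = 0.0233). Egr2, a relative of Egr1, fell by 1.70 (SE 0.27, adjusted p = 0.0262), to 8.56, 9.17 and 8.95 on the sgp130Fc arrays, against 10.42, 11.11 and 10.24 on the IL6_KO arrays. The growth arrest gene Gadd45b fell by 1.03 (adjusted p = 0.0157) and Ier5l by 0.86 (adjusted p = 0.0346). Egr2 also exceeded WT in IL6_KO by 1.48, with an adjusted p of 0.0795, and Id1, an inhibitor of helix-loop-helix factors, differed there by -1.29 (adjusted p = 0.0529).

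Of 29 inducers and kinases upstream of these genes, 20 were tested and 0 were called by limma in any comparison. At an unadjusted p under 0.05, 2 were higher in IL6_KO minus WT, against 21.3% of all tested genes. In sgp130Fc minus WT there were 0, against 8.56%. In sgp130Fc minus IL6_KO, 1 was higher and 2 lower, against 18.4%. The medians of the 20 were 0.11 in IL6_KO minus WT, 0.03 in sgp130Fc minus WT and -0.14 in sgp130Fc minus IL6_KO. Crtc1, a coactivator of CREB, was among those with the smallest p in IL6_KO minus WT, at 0.62 (adjusted p = 0.170).

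Feedback inhibitors are induced together with the immediate early genes and shut the response down, and 18 of 23 were tested. Between sgp130Fc and IL6_KO, 2 rose and 2 fell, against 1.44% of all tested genes. Dusp1, the phosphatase that ends MAP kinase signals, rose by 1.06 (SE 0.15, adjusted p = 0.0177), with 12.35, 12.43 and 12.53 on the sgp130Fc arrays and 11.20, 11.56 and 11.36 on the IL6_KO arrays. Tsc22d3, a glucocorticoid-induced inhibitor of AP-1, rose by 1.57 (SE 0.17, adjusted p = 0.00539). Socs3, the inhibitor that IL-6 itself induces, fell by 1.38 (SE 0.20, adjusted p = 0.0174), to 6.70, 7.29 and 6.94 on the sgp130Fc arrays, against 8.21, 8.32 and 8.56 on the IL6_KO arrays. The WT arrays had 7.67 and 8.09, below all IL6_KO and above all sgp130Fc arrays. Socs3 was called in neither comparison with WT, at 0.48 in IL6_KO (adjusted p = 0.261) and -0.90 in sgp130Fc (adjusted p = 0.332). The phosphatase gene Dusp4 fell by 0.88 (adjusted p = 0.0272). In sgp130Fc minus WT, Dusp4 was also the only one called, against 0.112% of all tested genes, and fell by 1.28 (adjusted p = 0.036). It lost that call when any array but IL6_KO replicate 2 was left out (adjusted p up to 0.21). At an unadjusted p under 0.05, 5 were higher and 2 lower in sgp130Fc minus WT, against 8.56% of all tested genes. In IL6_KO minus WT 0 were called by limma (1 higher and 3 lower at an unadjusted p under 0.05, against 21.3%).

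Genes known as targets of AP-1, EGR and NR4A factors include proteases, adhesion molecules and cytokines. Of 25, 21 were tested, and their median was 0.78 in IL6_KO minus WT, 0.10 in sgp130Fc minus WT and -0.58 in sgp130Fc minus IL6_KO. In IL6_KO minus WT, Mmp12, the macrophage elastase, was the only one called, against 0.296% of all tested genes. It rose by 2.26 (SE 0.35, adjusted p = 0.0467), with 13.09, 13.71 and 12.63 on the IL6_KO arrays and 10.81 and 10.97 on the WT arrays. With it, 10 were higher at an unadjusted p under 0.05 and 0 lower, against 21.3% of all tested genes in either direction. Mmp13, a collagenase, differed by 2.16 (adjusted p = 0.0529) and Plaur, the urokinase receptor, by 1.56 (adjusted p = 0.0644). In sgp130Fc minus IL6_KO, Mmp12 fell by 1.61 (adjusted p = 0.0467), Mmp13 by 1.64 (adjusted p = 0.045) and Plaur by 1.29 (adjusted p = 0.0481). These 3 were the ones called, against 1.44% of all tested genes. At an unadjusted p under 0.05, 14 of 21 were lower, against 18.4%. In sgp130Fc minus WT 0 were called (1 at an unadjusted p under 0.05, against 8.56% of all tested genes). Several of these targets are macrophage genes. The medians of the macrophage markers were 0.62 in IL6_KO minus WT, 0.55 in sgp130Fc minus WT and -0.15 in sgp130Fc minus IL6_KO, beside 0.78, 0.10 and -0.58 for the targets. In sgp130Fc minus IL6_KO, 1 of the 10 markers was higher and 4 were lower at an unadjusted p under 0.05 by limma. Their part in the targets' differences was not tested.

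Stress proteins were listed because fat handled before freezing can induce them together with immediate early genes, and 17 of 19 were tested. Ddit4, an mTOR inhibitor that glucocorticoids and hypoxia induce, fell by 1.63 in IL6_KO minus WT (SE 0.21, adjusted p = 0.025). It rose by 2.94 in sgp130Fc minus IL6_KO (SE 0.18, adjusted p = 0.000238), or 7.68-fold, with 10.96, 10.95 and 11.15 on the sgp130Fc arrays and 8.30, 7.73 and 8.22 on the IL6_KO arrays. The WT arrays had 9.83 and 9.58, and sgp130Fc minus WT was 1.31 (adjusted p = 0.0742). No other gene of the list was called in any comparison. Of all tested genes, 0.296% were called in IL6_KO minus WT, 0.112% in sgp130Fc minus WT and 1.44% in sgp130Fc minus IL6_KO. Ddit4 included, 2 were higher and 2 lower in IL6_KO minus WT at an unadjusted p under 0.05 by limma, against 21.3%. In sgp130Fc minus WT 2 were higher and 0 lower, against 8.56%, and in sgp130Fc minus IL6_KO 5 higher and 1 lower, against 18.4%. The medians of the 17 were -0.03, 0.26 and 0.27 in these 3 comparisons. Their mean level was 9.14 to 9.31 on IL6_KO arrays, 9.59 to 9.80 on sgp130Fc arrays and 9.358 to 9.425 on WT arrays. The heat shock protein gene Hspb1 differed by -0.97 in IL6_KO minus WT (adjusted p = 0.143). Hspa5 and Hsph1 of the same list went the other way there, by 0.65 and 0.48 (adjusted p = 0.236 and 0.222). Hspa5 also exceeded WT in sgp130Fc, by 0.99 (adjusted p = 0.423).

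Of the 14 list genes called in sgp130Fc minus IL6_KO, Per1, Tsc22d3 and Ddit4 kept an adjusted p under 0.05 in all 19 alternatives. The other 11 lost it without IL6_KO replicate 1, without sgp130Fc replicate 1 or without sgp130Fc replicate 3 (adjusted p up to 0.193), and 10 of them (all but Socs3) without sgp130Fc replicate 2 (up to 0.184). Without either WT replicate Jdp2, Mmp12, Mmp13 and Plaur lost it, and without IL6_KO replicate 2 Jdp2, Ier5l, Dusp4, Mmp12 and Plaur did. Without the detection filter Jdp2, Ccn2, Egr2, Mmp12, Mmp13 and Plaur lost it, with only the compared groups Jdp2, Mmp12, Mmp13 and Plaur, without background correction Mmp12, Mmp13 and Plaur, with 75th percentile scaling Mmp12 and Plaur, and with probes averaged per gene Dusp4. In IL6_KO minus WT, Mmp12 and Ddit4 both lost their call without IL6_KO replicate 1, any 1 sgp130Fc array or either WT array, and Mmp12 also without IL6_KO replicate 2 (adjusted p = 0.0542). Both also lost it without the detection filter (adjusted p up to 0.13) and with only the compared groups (up to 0.187), and Mmp12 without background correction (0.0686), with 75th percentile scaling (0.0572) and with detection on all 8 arrays (0.0547). The Dusp4 call in sgp130Fc minus WT was also lost with probes averaged per gene (0.101) and with only the compared groups (0.0898).

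**Figure D4:**
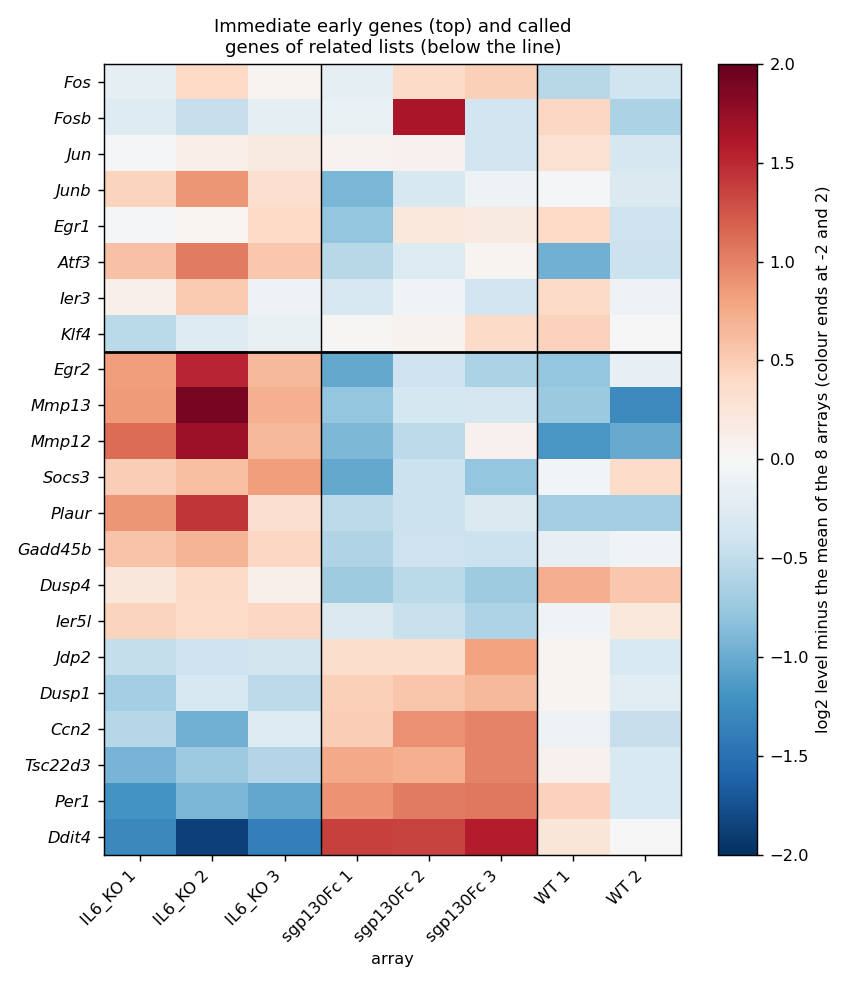
Level of each gene (rows) on each array (columns) as the log2 difference from its mean over the 8 arrays, red above and blue below, with colours ending at -2 and 2; the 8 detected immediate early genes are above the line, and below it the 14 list genes called in sgp130Fc minus IL6_KO. The lower rows were chosen for their differences, and Ddit4 and Per1 are blue on all 3 IL6_KO arrays and red on all 3 sgp130Fc arrays.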

How the data were processed

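RNA of 8 adipose samples was hybridised to Illumina bead arrays. The deposited intensity of each of 25697 probes is on a linear scale and not normalized, per the file headers, beside a detection p-value that the authors computed for each probe and array. The authors also deposited normalized log2 values, and the submitters' processing notes name GenomeStudio and limma without versions. Intensities were background-corrected and quantile-normalized here with neqc (limma 3.58.1, R 4.3.3, offset 16), which gave member values within 0.00324 of the deposited log2 values. Testing took the 14141 probes that 2 or more arrays detected at a p under 0.05, with lmFit, contrasts and eBayes on the 3 groups of all 8 arrays (two-sided, Benjamini-Hochberg over all tested probes, threshold 0.05). The moderated test had 8.98 degrees of freedom, and the median SE over probes was 0.21 in comparisons with WT and 0.19 in sgp130Fc minus IL6_KO. The brightest tested probe stands for a gene.

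Probe symbols came from the platform annotation: 23978 probes had 1 symbol, 1719 none and 0 several. The members and the lists were chosen with earlier results of these data known. Named are all members, of each list the genes called in any comparison and the 3 of smallest p in each comparison with WT, from which examples are printed, and the 5 genes most like the members' mean. The model was tested on simulated data with added differences wider than that of any member. That test does not show how often narrower differences are missed. Same-numbered replicates of IL6_KO and sgp130Fc had deviations correlated at 0.18, -0.13 and -0.002. Same-numbered replicates of WT had -0.26 and 0.053 with IL6_KO, and -0.353 and 0.138 with sgp130Fc. So few arrays cannot decide whether the numbers pair the samples, and the main model takes no pairing. Alternatives were the normalization, offset, filter, prior, array weights, groups fitted, replicate block and each array left out. Chips and scan dates are not used here. The number of arrays limits the precision.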

Additional observations from a re-analysis of the deposited data

How the results depend on the processing

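The number of probes called varied widely while the members stayed uncalled in most settings. In IL6_KO minus WT, 35 probes were called, against 21 without background correction, 9 without a detection filter, 13 with detection on all 8 arrays, 64 with an intensity trend, 268 with array weights, 5 with only the compared groups and 12 with the replicate block, and 6 to 778 with 1 array left out (778 without IL6_KO replicate 3). In sgp130Fc minus WT, 13 were called, against 8 without background correction, 22 with an offset of 50, 6 without the filter, 5 with detection on all 8 arrays, 20 with the trend, 5 with the replicate block and 28 with array weights, and 3 to 21 with 1 array left out. In sgp130Fc minus IL6_KO, 179 were called, against 107 without the filter, 79 with the replicate block and 1730 with array weights, and 24 to 495 with 1 array left out. Whether the replicate numbers pair the samples is not known, and with the block 0 members were called. Of the 14 list genes called in sgp130Fc minus IL6_KO, 7 stayed called with the block and Jdp2, Ier5l, Dusp1, Dusp4, Mmp12, Mmp13 and Plaur did not (adjusted p up to 0.0789). Mmp12 and Ddit4 in IL6_KO minus WT (up to 0.07) and Dusp4 in sgp130Fc minus WT (0.212) also lost their call.

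Members called in IL6_KO minus WT were 1 with the trend, 1 with array weights and 0 to 1 with 1 array left out, each time Atf3. Of the 14141 tested probes these settings called 64, 268 and, without IL6_KO replicate 3, 778. In sgp130Fc minus IL6_KO, 3 members were called with array weights (Atf3, Junb and Klf4), beside 1730 of the 14141 probes. The weights ran from 0.381 for IL6_KO replicate 2 to 3.52 for IL6_KO replicate 1. The median difference of the members was -0.21 to 0.46 in IL6_KO minus WT and -0.33 to 0.22 in sgp130Fc minus WT with 1 array left out, at both ends with 1 WT array. In sgp130Fc minus IL6_KO it was -0.34 (without sgp130Fc replicate 2) to -0.08 (without sgp130Fc replicate 1), and -0.09 with array weights and -0.11 without the filter. Signs turned for small differences. With array weights Ier3 gave -0.034 in IL6_KO minus WT, and Jun 0.043 in sgp130Fc minus WT and 0.024 in sgp130Fc minus IL6_KO. With 1 array left out, IL6_KO minus WT spanned -0.20 to 0.27 for Ier3, -0.72 to 0.33 for Fosb, -0.21 to 0.42 for Jun and -0.26 to 0.55 for Egr1. In sgp130Fc minus WT the span was -0.37 to 0.25 for Jun, -0.52 to 0.30 for Egr1, -0.15 to 1.01 for Fosb and -0.30 to 0.15 for Klf4. In sgp130Fc minus IL6_KO it was -0.0008 to 0.34 for Fos and -0.42 to 0.066 for Egr1. Atf3, Junb and Klf4 kept their sign in IL6_KO minus WT and in sgp130Fc minus IL6_KO in all 19 alternatives. The causes were not tested. Dim probes near background, such as Fosb, limit what can be seen.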

Other observations

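Markers of blood and other cells also differed between the arrays. All 4 tested erythroid markers were lower in IL6_KO than in WT, 2 of them called, against 0.296% of all tested genes, with summed levels of 5737 to 13800 on the IL6_KO arrays (7403 and 13800 without replicate 2), 22330 to 24840 on the sgp130Fc arrays and 24020 to 25280 on the WT arrays. Set against IL6_KO, all 4 were higher in sgp130Fc, 2 of them called, against 1.44%. The 3 tested neutrophil markers summed to 1193 to 5978 on the IL6_KO arrays (1193 and 1219 without replicate 2), 2299 to 3841 on the sgp130Fc arrays and 1122 to 1814 on the WT arrays, with 0 called by limma (0 at an unadjusted p under 0.05). Fibroblast and preadipocyte markers, 8 of 8 tested, were all higher in IL6_KO than in WT, with 0 called by limma (2 at an unadjusted p under 0.05, against 21.3%). Of the skeletal muscle markers, Myh4, Ckm, Tnnt3 and Mylpf were not tested for lack of detection, and Acta1 alone was. T and NK cell markers, 6 of 8 tested, summed to 279 to 584 on the IL6_KO arrays, 225 to 441 on the sgp130Fc arrays and 366 to 1073 on the WT arrays, with 0 called (0 in IL6_KO minus WT and 3 in sgp130Fc minus WT at an unadjusted p under 0.05, against 21.3% and 8.56%).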
